A study of Homo sapiens with 6 samples.

Results

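The genes of the mitochondrial chromosome were taken from the count table as the entries on chromosome M whose symbol begins with MT-. This gave 15 genes of the 30270 in the table, namely 13 mRNAs and 2 rRNAs, and all 15 had enough counts to be tested. The annotation used here (GENCODE release 44, build hg38) lists 37 genes on this chromosome, and its 22 tRNA genes were not analysed here. The libraries were made from total RNA of HEK 293T cells, a line derived from human embryonic kidney, after reduction of rRNA. There were 3 libraries of wild-type cells (WT) and 3 libraries labelled as a TENT3A/B double knockout (ΔTUT4/7), with no treatment in either group. TENT3A and TENT3B are other names of TUT4 and TUT7, which are terminal uridylyltransferases. The knockout line was made in another laboratory and the WT line came from a cell repository, so differences between the 2 lines other than the deletion cannot be told apart from it. How many clones the knockout line represents is not given in the sources used here.

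The mitochondrial chromosome is a small circular DNA of which each cell holds many copies. Its 13 mRNAs encode core subunits of complexes I, III, IV and V, the enzymes that carry electrons to oxygen and make ATP, and its 2 rRNAs belong to the ribosome that translates them inside the organelle. Both strands are transcribed as long RNAs, from which the tRNAs are cut out and so release most of the mRNAs and rRNAs. Some of the mRNAs lack a full stop codon in the DNA, and the A residues added to their 3′ ends complete it. All transcription, processing and 3′ end formation factors are encoded in the nucleus and imported.

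Total counts ranged from 18757228 to 33148937 per library, and no pair of libraries agreed within sampling noise. TUT7 fell from 62.6 ± 2.17 to 26.3 ± 1.04 CPM (counts scaled to a common library size, mean ± SD, n = 3). TUT4 rose from 211 ± 5.08 to 906 ± 21.4 CPM (edgeR quasi-likelihood test, adjusted p = 7.89e-19). It was between 206 and 216 CPM in each WT library and between 882 and 920 CPM in each of the others. An RNA level does not show whether functional protein was lost, and the deletion itself was not checked here. The labels were kept, and the libraries are called "labelled ΔTUT4/7" throughout. Of the markers of embryonic kidney and of the HEK 293T lineage, PAX2, LHX1, NEFL, VIM, KRT8 and KRT18 were present in every library. All of them differed between the groups. NEFL, KRT8, LHX1 and PAX2 were called lower in the libraries labelled ΔTUT4/7 by edgeR (log2 fold changes of -1.74, -1.54, -0.98 and -0.56). VIM (1.33) and KRT18 (0.54) were called higher. NEFM, a neurofilament gene typical of these cells, had between 18074 and 34030 counts in WT and 0 or 1 in the libraries labelled ΔTUT4/7. Of the markers of other cell types, CD68, PECAM1, VWF and ALB stayed at 11 counts or fewer in any library, HBA1 had 0 to 5 counts in WT and 28 to 34 in the libraries labelled ΔTUT4/7, and PTPRC, CD3E, CDH5 and APOA1 were not analysed here.

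The layout of the chromosome bears on how its reads can be counted, so the sequences at the points that matter are shown first. The 2 ATP synthase genes overlap by 46 bases (hg38, chrM:8527-8572, plus strand), given in capitals in the window chrM:8497-8602, and MT-ND4L and MT-ND4 overlap by 7 bases (chrM:10760-10766), in capitals in chrM:10730-10796. MT-ATP6 and MT-CO3 share 1 base.
MT-ATP8 and MT-ATP6 overlap: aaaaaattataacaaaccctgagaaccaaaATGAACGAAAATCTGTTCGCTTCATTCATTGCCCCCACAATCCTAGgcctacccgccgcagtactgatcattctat
MT-ND4L and MT-ND4 overlap: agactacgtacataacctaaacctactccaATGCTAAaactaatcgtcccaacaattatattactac
Each overlapping pair lies on the same strand, and a read that spans the capitals covers bases of both genes.

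The genes whose results are described most closely below are MT-CO1 and MT-CYB. For each, the 30 bases before the start codon (capitals) and the bases that follow it are shown, and then the end of the gene with the encoded part of the stop codon in capitals.
MT-CO1 start: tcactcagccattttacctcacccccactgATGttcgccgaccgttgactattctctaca
MT-CYB start: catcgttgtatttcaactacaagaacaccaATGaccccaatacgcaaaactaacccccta
MT-CO1 end: ccgtatacataaaatctAGAcaaaaaagga
MT-CYB end: caaaatactcaaatgggccTgtccttgtag
MT-CO1 (chrM:5904-7445) lay 12 bases after MT-TY and MT-CYB (chrM:14747-15887) lay 4 bases after MT-TE, and both of these tRNA genes are on the opposite strand. MT-CO1 ended in a complete AGA, while MT-CYB ended in a lone T. In all, 7 of the 13 mRNA genes held a full stop codon, and 6 (MT-ND1, MT-ND2, MT-CO3, MT-ND3, MT-ND4 and MT-CYB) did not.

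Parts of the mitochondrial chromosome also exist as copies in the nuclear genome, where a read that falls in an identical stretch cannot be placed by its own sequence. Of all 76-base windows of each gene, the read length of this study, those also found without mismatch on a nuclear chromosome made up 36.3% in MT-CO1, 34.0% in MT-ND2, 28.0% in MT-RNR1, 27.2% in MT-ATP6, 16.8% in MT-ND1, 14.4% in MT-CO3 and 10.2% in MT-CO2. They made up 6.7% in MT-ND6, 3.1% in MT-RNR2, 0.1% in MT-ND5, and 0% in MT-CYB, MT-ND4, MT-ND4L, MT-ND3 and MT-ATP8. Reads were paired, and a mate outside such a window can place the pair, so these are shares of windows and not of reads that could not be placed. For example, the first 76 bases of MT-CO1 (chrM:5904-5979) were identical to the pseudogene MTCO1P12 on chr1:631074-631149, which is shown with its start codon in lower case like the rest.
MT-CO1 and MTCO1P12: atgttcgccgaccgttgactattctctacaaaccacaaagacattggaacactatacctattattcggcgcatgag
Values of MT-CO1, MT-ND2 and MT-ATP6 can therefore depend on how the authors' expectation-maximisation model shared such reads, and those of MT-CYB, MT-ND4 and MT-ND4L do not depend on an exact nuclear copy.

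Mitochondrial genes took a smaller share of the libraries labelled ΔTUT4/7. Their share was 2.06%, 2.12% and 2.65% in WT replicates 1 to 3 and 1.67%, 1.74% and 1.72% in replicates 1 to 3 of the libraries labelled ΔTUT4/7. Every WT value lay above every other value, and the Wilson 95% intervals, which cover counting error only, were narrow (2.06% to 2.07% for the shallowest library, WT replicate 1). The means were 2.28% ± 0.321 and 1.71% ± 0.0335 (SD, n = 3), a difference of -0.568 percentage points. An exact two-sided permutation test over libraries gave p = 0.1, which is the smallest that 3 against 3 can give. In bulk RNA, fewer transcripts per cell, fewer mitochondria and a larger amount of other RNA cannot be told apart in such a share.

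WT replicate 3 stood apart for these genes and widened the WT spread. It held the highest level of the 6 libraries for all 13 mRNAs, and its CPM exceeded the mean of WT replicates 1 and 2 by a factor of 1.17 for MT-CO1 to 1.87 for MT-ATP8. The factor followed gene length, with a Spearman correlation of -0.87 over the 13 genes, a description only since all come from the same libraries. The 3 genes of up to 500 bases had a median log2 ratio of 0.66, the 5 genes of 500 to 1000 bases 0.51, and the 5 longer genes 0.36. Nuclear protein-coding genes showed a small shift of the same kind, with a median log2 ratio of 0.21 for 76 genes with transcripts of up to 500 bases, 0.06 for 537 genes of 500 to 1000 bases and -0.01 for 5165 genes above 4000 bases. The difference in library share was -0.384 percentage points without WT replicate 3. The log2 fold changes of the 13 mRNAs below are given with and without it.

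**Figure D1:**
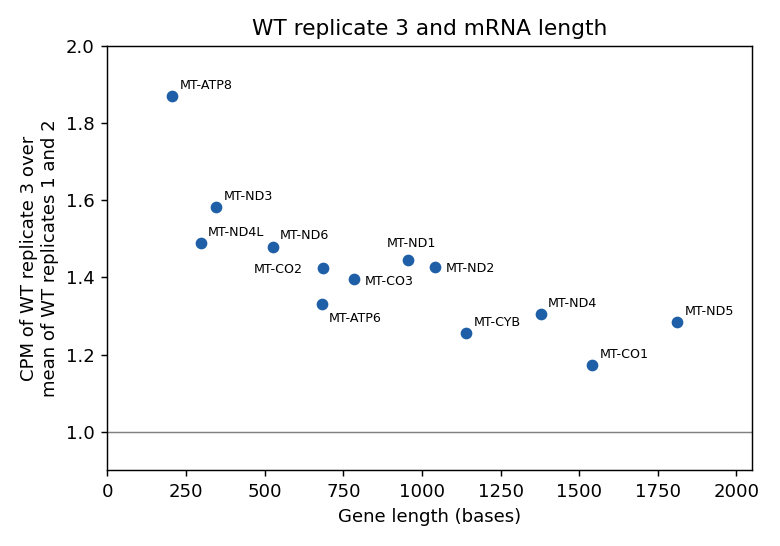
For each of the 13 mitochondrial mRNAs, the CPM in WT replicate 3 divided by the mean CPM of WT replicates 1 and 2 (vertical axis, linear, starting at 0.9) is plotted against gene length in bases (horizontal axis). All points lie above the grey line at 1, from 1.17 for MT-CO1 to 1.87 for MT-ATP8, and the shortest genes lie highest.

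Of the 13 mRNAs, 2 fell in the libraries labelled ΔTUT4/7 and 0 rose (edgeR quasi-likelihood test, false discovery rate under 0.05 over 23952 genes). No mRNA had an unadjusted p under 0.05 in the higher direction either, and DESeq2 and limma each called 0 higher. Over all tested genes, 29.0% were called lower, 28.6% higher and 57.7% in either direction, so that 2 of 13 lower (15.4%) and 0 of 13 higher are shares below the background. The median log2 fold change of the 13 mRNAs was -0.17, against -0.02 over all tested genes, and was -0.04 without WT replicate 3. For 4 of the 15 genes (MT-CO1, MT-CYB, MT-ND4 and MT-ND4L) every library labelled ΔTUT4/7 lay below every WT library, and for 0 it lay above. Of all tested genes, 31.8% separated in the lower direction, 30.9% in the higher and 62.7% in either.

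MT-CYB, which encodes cytochrome b, the subunit of complex III that comes from the mitochondrial chromosome, showed the larger fall of the 2 called mRNAs. Its level was 1916, 2086 and 2514 CPM in the WT libraries and 1322, 1367 and 1338 CPM in the libraries labelled ΔTUT4/7. The latter 3 lay close together and all below the lowest WT library. The log2 fold change was -0.69 ± 0.10 (SE, n = 3 per group; adjusted p = 0.00082, edgeR), and -0.58 without WT replicate 3. MT-CYB made up 0.226% ± 0.0293 of the WT libraries and 0.129% ± 0.00106 of the others.

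MT-CO1, which encodes the catalytic subunit of complex IV, was the most abundant mitochondrial mRNA in every library. Its level was 6667, 7196 and 8128 CPM in WT and 5142, 5385 and 5161 CPM in the libraries labelled ΔTUT4/7, with no overlap. The log2 fold change was -0.49 ± 0.06 (SE; adjusted p = 4.36e-06, edgeR) and -0.41 without WT replicate 3. It took 0.762% ± 0.0683 of the WT libraries and 0.502% ± 0.0086 of the others. The other complex IV mRNAs did not pass the test. MT-CO2 was at 658, 706 and 972 CPM in WT and 659, 650 and 624 CPM in the libraries labelled ΔTUT4/7 (-0.27 ± 0.17, adjusted p = 0.250, edgeR; -0.09 without WT replicate 3), and MT-CO3 was at 2011, 2043 and 2828 against 1985, 2242 and 2069 CPM (-0.13 ± 0.17, adjusted p = 0.561, edgeR; 0.04 without WT replicate 3). In both, WT replicate 3 stood above 5 libraries that overlapped.

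The 7 complex I mRNAs gave no call with all libraries. MT-ND4 was at 2208, 2239 and 2903 CPM in WT and 1979, 1981 and 1995 CPM in the libraries labelled ΔTUT4/7, and MT-ND4L, its neighbour with the shared bases shown above, at 214, 220 and 323 against 172, 182 and 180 CPM. Both separated the groups without overlap, yet their log2 fold changes of -0.30 ± 0.12 (adjusted p = 0.0754, edgeR) and -0.51 ± 0.20 (adjusted p = 0.0911) missed the threshold. Without WT replicate 3 both passed it, at -0.17 (adjusted p = 0.0019) and -0.30 (adjusted p = 1.72e-05). The libraries of the other 5 overlapped. MT-ND1 was at 1030, 944 and 1426 CPM in WT and 1043, 1135 and 1072 CPM in the libraries labelled ΔTUT4/7, and MT-ND2 at 1086, 1107 and 1566 against 1190, 1276 and 1214 CPM. Their log2 fold changes were -0.07 ± 0.18 and -0.03 ± 0.17 with all libraries, and 0.13 (adjusted p = 0.0369, edgeR) and 0.15 (adjusted p = 0.00685) without WT replicate 3, which turned both to calls in the higher direction. MT-ND3 (181, 160 and 270 against 163, 196 and 186 CPM) and MT-ND5 (1704, 1682 and 2173 against 1526, 1698 and 1756 CPM) had log2 fold changes of -0.17 ± 0.24 and -0.16 ± 0.12, with adjusted p-values of 0.602 and 0.336 (edgeR). Without WT replicate 3 these were 0.08 and -0.04, and neither passed the test.

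MT-ND6 is the mRNA encoded on the opposite strand to the other 12. It was at 359, 328 and 508 CPM in WT and 331, 381 and 375 CPM in the libraries labelled ΔTUT4/7 (-0.14 ± 0.20, adjusted p = 0.608, edgeR; 0.07 without WT replicate 3). Its log2 ratio to the summed counts of the other 12 mRNAs was -5.77 ± 0.146 in WT and -5.59 ± 0.0764 in the libraries labelled ΔTUT4/7, and the groups overlapped (exact permutation p = 0.2). Since the strand setting of the counting is not stated, RNA from the opposite strand of this gene may be included.

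The 2 ATP synthase mRNAs did not pass the test with all libraries. MT-ATP6 was at 1604, 1514 and 2076 CPM in WT and 1759, 1758 and 1790 CPM in the libraries labelled ΔTUT4/7 (0.03 ± 0.13, adjusted p = 0.864, edgeR), and was the mRNA with the highest fold change of the 13. Without WT replicate 3 it was called higher, at 0.17 (adjusted p = 0.00232). MT-ATP8, the shortest gene with 207 bases, of which 46 are shared with MT-ATP6, was at 65.0, 53.7 and 111 CPM in WT and 48.1, 66.9 and 58.4 CPM in the others (-0.42 ± 0.35, adjusted p = 0.369), the widest error of the mRNAs, and its log2 fold change was -0.05 ± 0.18 without WT replicate 3. Without WT replicate 3, edgeR called 4 of the 13 mRNAs lower (MT-CO1, MT-CYB, MT-ND4 and MT-ND4L) and 3 higher (MT-ATP6, MT-ND1 and MT-ND2), with a lone pair of WT libraries on that side. The share of all tested genes called in that fit was not computed, so these counts have no background beside them. With all libraries, the scaling factors (TMM) of WT replicates 1 and 2 were 1.05 each, against 0.95 to 0.97 in the libraries labelled ΔTUT4/7. That of WT replicate 3 was 1.03. As unscaled percent of the library, the 3 mRNAs called higher overlapped. MT-ATP6 was at 0.168% and 0.158% against 0.167% to 0.172%, and MT-ND1 at 0.108% and 0.0987% against 0.101% to 0.108%. MT-ND2 was at 0.114% and 0.116% against 0.115% to 0.121%. These calls were not tested without TMM scaling.

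**Figure D2:**
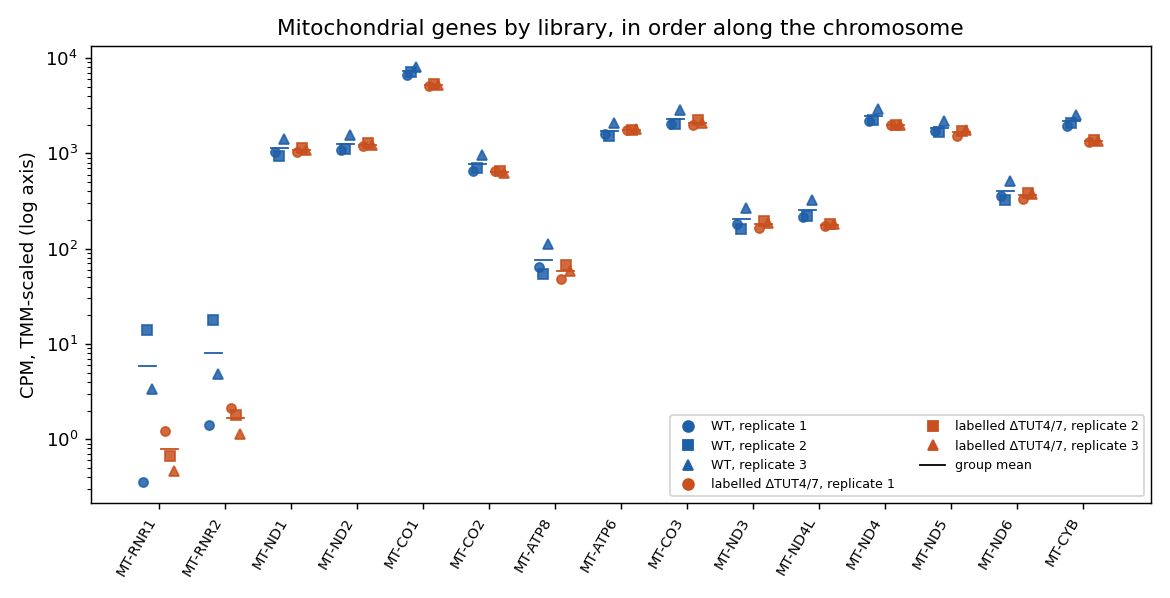
CPM of the 15 mitochondrial genes (log axis, scaled by TMM) in each of the 3 WT libraries (blue) and the 3 libraries labelled ΔTUT4/7 (orange), in gene order along the chromosome, with marker shapes for replicates and bars for group means. WT replicate 3 (blue triangles) is the top point for every mRNA, MT-CO1 and MT-CYB separate clearly, and the 2 rRNAs lie far lower and vary most.

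**Figure D3:**
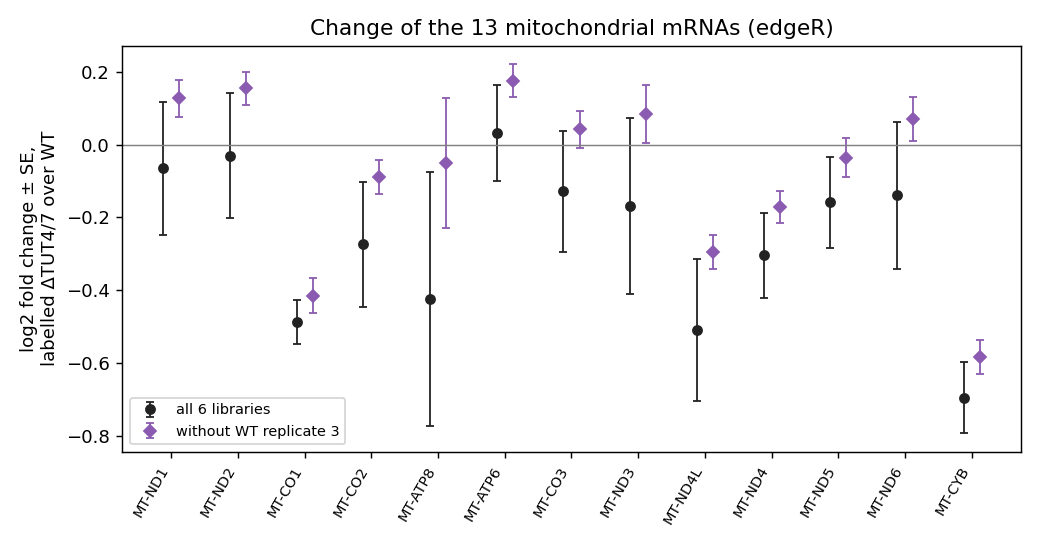
Log2 fold change ± SE of each of the 13 mRNAs, libraries labelled ΔTUT4/7 over WT, with all 6 libraries (black circles) and without WT replicate 3 (purple diamonds), in gene order. All 13 mRNAs move up and narrow when that library is left out. MT-CO1 goes from -0.49 to -0.41 and MT-CYB from -0.69 to -0.58. MT-ND4 (-0.30 to -0.17), MT-ND4L (-0.51 to -0.30) and MT-CO2 (-0.27 to -0.09) also stay below 0 by more than their SE in both.

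The 2 rRNAs were reduced on purpose when the libraries were made and remained in traces. MT-RNR1, the small-subunit rRNA, had 7, 364 and 103 counts in the WT libraries and 39, 13 and 9 in the libraries labelled ΔTUT4/7. MT-RNR2, the large-subunit rRNA, had 28, 466 and 150 against 68, 35 and 22 counts. WT replicate 2 was the highest and WT replicate 1 the lowest or near the lowest library, so that the groups overlapped. Log2 fold changes of -2.84 ± 1.41 and -2.24 ± 1.09 did not pass the test (adjusted p = 0.164 and 0.158, edgeR) and became -1.26 and -0.94 without WT replicate 2. Together the rRNAs took 0.00146% ± 0.00166 of the WT libraries and 0.000237% ± 8.52e-05 of the others (exact permutation p = 0.3). The rows with symbols of cytosolic rRNA genes, 14 in number, held 31 to 61 counts per library. How completely the reduction step worked in each library was not tested.

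Within the mitochondrial mRNA pool, 8 of the 13 mRNAs took shares that did not overlap between the groups, 3 lower and 5 higher in the libraries labelled ΔTUT4/7. That is a share near the 62.7% of all tested genes whose CPM separated. Each mRNA was expressed as its percent of the summed counts of the 13, which does not depend on the scaling of the library, but the percents must sum to 100, so a fall of the largest member raises the others. MT-CYB made up 9.72%, 10.3% and 9.74% of the pool in WT and 7.64%, 7.46% and 7.51% in the libraries labelled ΔTUT4/7. MT-CO1 made up 33.8%, 35.5% and 31.5% against 29.7%, 29.4% and 29.0%. MT-ND4L, with means of 1.14% and 0.999%, was the remaining member whose pool share was lower in every library labelled ΔTUT4/7.

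A larger set of 5 mRNAs took a higher share of the pool in every library labelled ΔTUT4/7. MT-ATP6 went from 8.14%, 7.47% and 8.05% to 10.2%, 9.60% and 10.0%, and MT-ND2 from 5.51%, 5.46% and 6.07% to 6.87%, 6.96% and 6.81%. The means of MT-ND1 were 5.14% and 6.08%, those of MT-CO3 10.4% and 11.8%, and those of MT-ND5 8.46% and 9.31%. The shares of MT-ATP8, MT-CO2, MT-ND3, MT-ND4 and MT-ND6 overlapped. Relative to the summed mRNAs in an edgeR fit added after the data were seen, MT-CYB was called lower (-0.40 ± 0.14, adjusted p = 0.00852) and MT-ATP6 higher (0.33 ± 0.14, adjusted p = 0.0291), while MT-CO1 was at -0.20 ± 0.13 (adjusted p = 0.213).

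**Figure D4:**
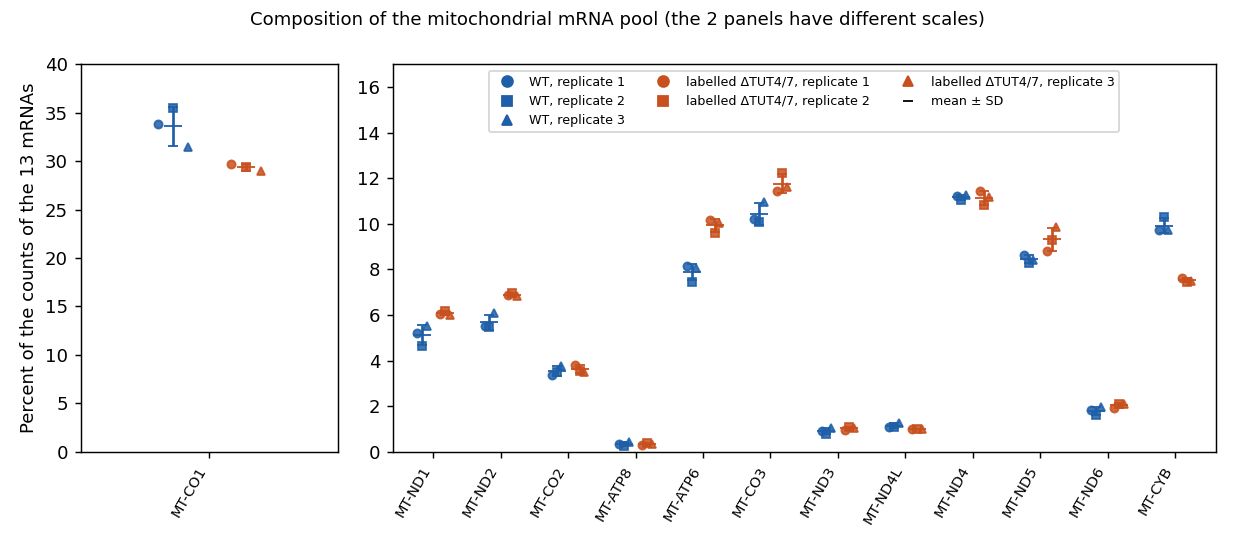
Percent of the summed counts of the 13 mitochondrial mRNAs taken by each gene (linear axes from 0, MT-CO1 on a scale of its own at the left), per library in WT (blue) and labelled ΔTUT4/7 (orange), with mean ± SD. MT-CO1 and MT-CYB lie lower and MT-ATP6, MT-ND2, MT-ND1, MT-CO3 and MT-ND5 higher in all 3 libraries labelled ΔTUT4/7.

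Levels of different mRNAs were compared per kilobase of gene, each as percent of the sum over the 13. In WT the order was MT-CO1 (22.8% ± 1.81, SD), MT-CO3 (13.9%), MT-ATP6 (12.1%), MT-CYB (9.09%), MT-ND4 (8.47%), MT-ND2 (5.69%), MT-ND1 (5.61%), MT-CO2 (5.39%), MT-ND5 (4.88%), MT-ND4L (4.01%), MT-ND6 (3.59%), MT-ND3 (2.77%) and MT-ATP8 (1.72%). The neighbours MT-ND2 and MT-ND1, MT-ND1 and MT-CO2, and MT-ND4L and MT-ND6 had overlapping ranges over the WT libraries, and the other neighbours did not. In the libraries labelled ΔTUT4/7 MT-CYB stood in sixth place with 6.71%, behind MT-ND4 (8.21%) and level with MT-ND2 (6.71%), whose ranges overlapped. MT-ATP6 and MT-CO3, joined by their shared base, came closer, at 14.8% and 15.2%, and their ranges overlapped there. Counts per kilobase within the overlapping pairs were unequal, which does not show unequal RNA, since lengths were not corrected for the loss of reads at the ends of short genes or for the shared bases. MT-ATP6 stood 5.69 to 11.1 times as high per kilobase as MT-ATP8 over the 6 libraries, and MT-ND4 1.94 to 2.48 times as high as MT-ND4L. The level per kilobase rose with gene length (Spearman correlation of 0.62 over 13 genes in WT, a description, with the same limit).

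Ratios within a library were tested for 7 pairs of sums, by exact two-sided permutation with Benjamini-Hochberg adjustment over the 7. No ratio could pass the threshold, since the smallest exact permutation p for 3 against 3 libraries is 0.1. In 3 of them the groups did not overlap, each with an adjusted p of 0.233 by the exact test. The log2 ratio of complex I to complex IV mRNAs was -0.47 ± 0.0977 in WT and -0.26 ± 0.0378 in the libraries labelled ΔTUT4/7, higher in all 3 of the latter. With the mean of the genes' log2 counts in place of the log2 of their sum, this difference went from 0.22 to 0.11 and the separation was lost (exact permutation p = 0.2). The log2 ratio of MT-ND5 plus MT-CYB, at the far end of the plus-strand transcript, to MT-ND1 plus MT-ND2, near its start, was 0.77 ± 0.115 in WT and 0.38 ± 0.0506 in the others. The far-end genes did not move together. The mean pool share of MT-CYB was lower in the libraries labelled ΔTUT4/7 (9.92% to 7.54%) and that of MT-ND5 higher (8.46% to 9.31%). An effect of position was not tested. The third concerned the nuclear pseudogenes described below. The log2 ratio of the mRNAs without a full stop codon to those with one was -0.39 ± 0.071 in WT and -0.32 ± 0.0167 in the others, with overlap (exact permutation p = 0.3). Across the 13 genes the log2 fold change had no rank correlation with gene length (0.00) or GC content (0.01), and across the 12 plus-strand mRNAs the correlation with start position was -0.44, all as descriptions over genes that share the same libraries.

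Nuclear pseudogenes of mitochondrial genes were numerous in the table, with 95 entries of which 59 were tested. Their summed counts were small beside those of the mitochondrial mRNAs, with a log2 ratio of -5.97 ± 0.0278 in WT and -5.72 ± 0.0568 in the libraries labelled ΔTUT4/7, which did not overlap. With the mean of log2 counts in place of the log2 of the sum, the difference went from 0.26 to 0.12 and the groups overlapped (exact permutation p = 1). That mean took only the pseudogenes with counts in every library, while the sum took all 95. Of the 59, 11 were called higher (18.6%, against 28.6% of all tested genes) and 12 lower (20.3%, against 29.0%) by edgeR, and the median log2 fold change was -0.19, or -0.03 without WT replicate 3. Adding the counts of each pseudogene to its parent left MT-CO1 at -0.49 and MT-CYB at -0.69. The pseudogenes with most counts included MTATP6P1 (164, 165 and 253 CPM in WT; 179, 187 and 174 CPM in the others) and MTCO1P12 (9.98, 9.23 and 16.3 against 10.2, 11.4 and 10.4 CPM), neither of which passed the test, and both of which were highest in WT replicate 3 as their parents were. MTND2P28 was called higher although its libraries overlapped (0.17 ± 0.07, adjusted p = 0.0377, edgeR), and MTND5P26 (-0.56 ± 0.18) and MTCYBP32 (-0.59 ± 0.19) were called lower at 2 to 5 CPM. Reads of these genes and of their mitochondrial parents cannot be told apart where the sequence is identical.

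The nuclear genes that transcribe, process and stabilise mitochondrial RNA and maintain its DNA gave mostly calls in the higher direction. Of 63 tested genes of this list, 42 rose (66.7%, against 28.6% of all tested genes) and 9 fell (14.3%, against 29.0%), with a median log2 fold change of 0.33. The class of RNA stability and 3′ end factors had 9 of 10 called higher and 0 lower by edgeR, and its remaining member, ANGEL2, lay at -0.11 on the log2 scale and did not pass the test. SUPV3L1, the RNA helicase of the mitochondrial degradosome, rose by 1.10 ± 0.06 on the log2 scale, from 42.5 ± 2.29 to 91.2 ± 3.55 CPM. Its partner PNPT1, a 3′ to 5′ exoribonuclease, rose by 0.78 ± 0.06, and MTPAP, the mitochondrial poly(A) polymerase, by 0.74 ± 0.05. LRPPRC and SLIRP, which together bind and protect mitochondrial mRNAs, rose by 0.35 ± 0.05 and 0.93 ± 0.16.

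The modification enzymes of rRNA and tRNA gave 16 of 20 higher and 2 lower (NSUN3 at -0.21 and METTL15 at -0.17). The largest increases were in PUS1, a pseudouridine synthase of tRNAs (22.7 ± 1.66 to 63.6 ± 3.64 CPM; log2 1.48 ± 0.07), MRM1, which methylates the large-subunit rRNA (2.99 ± 0.127 to 7.82 ± 0.45 CPM; log2 1.38 ± 0.14), and NSUN2, a cytosine methyltransferase of cytosolic and mitochondrial tRNAs (94.8 ± 0.515 to 226 ± 12.5 CPM; log2 1.25 ± 0.05). Of 13 processing factors, 8 were higher and 1 lower (PRORP, the protein-only RNase P subunit, at -0.19).

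Genes of transcription and of mitochondrial DNA replication were divided. Among 9 transcription genes 4 rose and 2 fell. TFAM, which packages the DNA and starts transcription, rose by 0.62 ± 0.04 on the log2 scale, and POLRMT, the mitochondrial RNA polymerase, by 0.31 ± 0.06, whereas TFB1M, a dimethyltransferase of the small-subunit rRNA, was lower, at -0.40 ± 0.08. The other calls of this class were TFB2M and MTERF1 (higher) and MTERF2 (lower). Among 11 replication genes 5 rose and 4 fell. TWNK, the helicase of mitochondrial DNA, had the largest increase of the list, from 27.3 ± 1.5 to 84.8 ± 1.9 CPM (log2 1.63 ± 0.06). POLG, the catalytic subunit of the DNA polymerase, and POLG2, its accessory subunit, were lower at -0.37 ± 0.05 and -0.77 ± 0.07, and so was PRIMPOL, a primase that acts in both nucleus and mitochondria, at -0.86 ± 0.12. The remaining calls were SSBP1, TOP1MT, RNASEH1 and DNA2 (higher) and MGME1 (lower). Genes of this list printed with an error were called by edgeR with adjusted p-values from 1.67e-15 (TWNK) to 0.00299 (SLIRP), and those printed without an error were named after their values were seen, as were COX4I1, ATP5PD and the further subunits below.

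The nuclear-encoded subunits of the complexes that hold the 13 mitochondrial products also gave more calls in the higher direction. Of 75 tested, 41 rose (54.7%, against 28.6% of all tested genes) and 7 fell (9.3%, against 29.0%), with a median log2 fold change of 0.21. Complex V had 13 of 18 higher and 1 lower, complex III 6 of 9 and 0, complex IV 5 of 11 and 1, and complex I 17 of 37 and 5. NDUFS6, a complex I subunit, rose most, from 10.1 ± 3.25 to 23.5 ± 2.81 CPM (log2 1.19 ± 0.23, adjusted p = 0.00656, edgeR), followed by UQCRC1, a core subunit of complex III (log2 0.91 ± 0.06). NDUFA7 and NDUFB1, also in complex I, fell most, at -0.47 ± 0.10 and -0.46 ± 0.13. The other subunits that fell were NDUFA11, NDUFS1 and NDUFV3 in complex I, COX4I1 (-0.43) in complex IV and ATP5PD (-0.21) in complex V, and those that rose in complex IV were COX6A1, COX6B1, COX7B, COX7C and NDUFA4. Transcript length moved with this result. The median length was 756 bases for the 73 subunit genes with a length, and nuclear protein-coding genes of 500 to 1000 bases had a median log2 fold change of 0.22, against 0.12 at 2000 to 4000 bases and -0.01 above 4000 bases. Its part in the count was not tested. The machinery list had a median length of 2799 bases.

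Side by side, complex III thus held a nuclear median of 0.31 on the log2 scale and MT-CYB at -0.69, complex IV a nuclear median of 0.09 and MT-CO1, MT-CO2 and MT-CO3 at -0.49, -0.27 and -0.13, and complex V a nuclear median of 0.43 and MT-ATP6 and MT-ATP8 at 0.03 and -0.42. Complex I held a nuclear median of 0.16 and a median of -0.16 for its 7 mitochondrial mRNAs. Without WT replicate 3, the median of the complex I mRNAs was 0.07, that of the complex IV mRNAs -0.09 (from -0.27) and that of the complex V mRNAs 0.06 (from -0.20), and MT-CYB was at -0.58. The nuclear medians without that library were 0.22 for complex I, 0.33 for complex III, 0.20 for complex IV and 0.39 for complex V. The nuclear lists without that library had 41 higher and 9 lower for the machinery and 45 higher and 7 lower for the subunits. The share of all genes called without it was not computed.

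**Figure D5:**
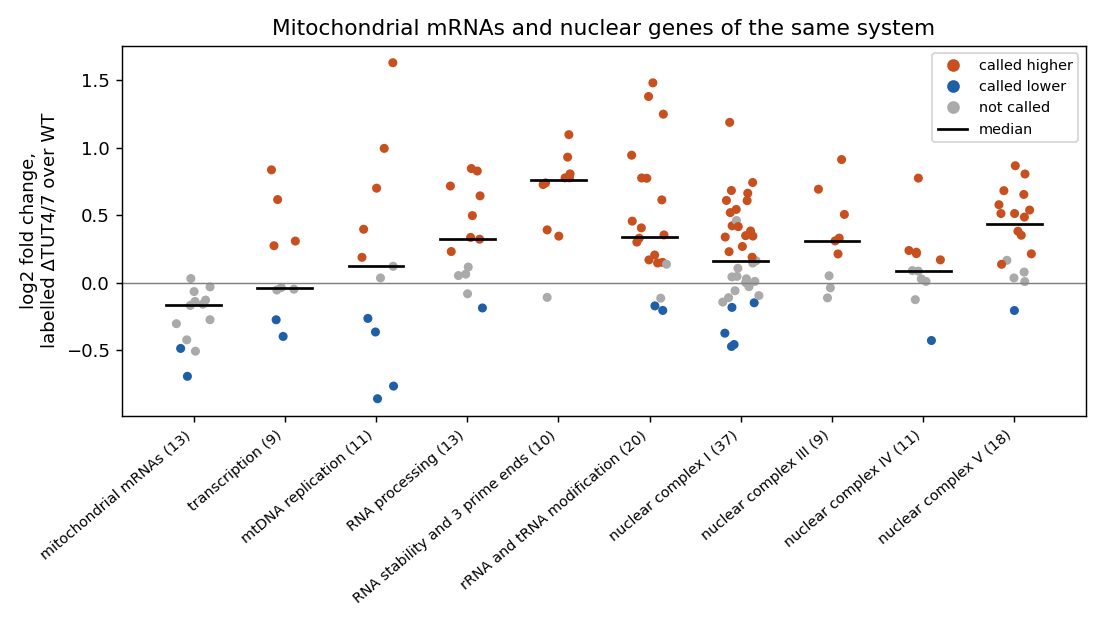
Log2 fold change of each tested gene (libraries labelled ΔTUT4/7 over WT) for the 13 mitochondrial mRNAs, 5 classes of nuclear genes for mitochondrial RNA and DNA, and the nuclear subunits of complexes I, III, IV and V, with the number of genes in parentheses, black bars for medians and colours for edgeR calls. The mitochondrial mRNAs have a median of -0.17 (-0.04 without WT replicate 3, not drawn), and the RNA stability and 3′ end factors lie highest, with 9 of 10 called higher.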

How the data were processed

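RNA was extracted with the miRNeasy kit and made into paired-end libraries with a total RNA kit that includes rRNA reduction. The authors aligned reads to hg38 with STAR 2.7.3a and deposited estimated counts per gene from the expectation-maximisation model of Partek Flow 10.0.22, which need not be whole numbers and share reads between similar genes by model. The strand setting is not given in the sources used here. A further table of the authors' own comparison, with p-values, ratios, fold changes and group means, was not used.

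Here the deposited estimated counts were rounded, genes with a largest count above 12 were kept, and edgeR 4.0.16 (R 4.3.3) was run with TMM scaling and a quasi-likelihood test, group as the only term, Benjamini-Hochberg adjustment over all 23952 tested genes and a threshold of 0.05. The study's own gene-specific analysis could not be run here. CPM are per TMM-scaled library size. DESeq2 1.42.0, limma 3.58.1, other scalings and filters, and leaving out each library were alternatives. Shares and ratios were compared by exact permutation of the libraries. Errors are SE for log2 fold changes and SD over 3 libraries otherwise. For edgeR the SE was derived from the test, as the absolute log2 fold change divided by the square root of the F statistic. The labels and the study's methods call the replicates biological, without saying whether they were separate cultures, so p-values measure the spread between these libraries.

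All start and end positions of the 15 genes matched GENCODE release 44. Windows of 76 bases of chromosome M (16569 bases) were searched on both strands of the 24 nuclear chromosomes of hg38. Same-numbered libraries of the 2 groups did not deviate together (correlations of 0.05, -0.01 and -0.02), so the main test has no replicate block. All 15 genes were named, and of the nuclear lists the 4 largest called changes in each direction and 7 central factors (2 and 2 for complex subunits, and the 5 pseudogenes with most counts). The genes, lists and tests were chosen with earlier results of these data known.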

Additional observations from a re-analysis of the deposited data

How the results depend on the processing

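MT-CO1 and MT-CYB were called lower under every planned scaling, filter and tool and without any 1 library, with MT-CO1 between -0.60 and -0.41 and MT-CYB between -0.81 and -0.58 on the log2 scale. The number of mRNAs called lower rose from 2 to 4 with library size alone, with the replicate block, with DESeq2 and with limma on log2(CPM + 1), and ranged from 2 to 4 when each library was left out, while the number called higher ranged from 0 to 3 and was 3 without WT replicate 3. The added calls came from MT-ND4 and MT-ND4L, or from MT-ND4 and MT-ND5 with the replicate block. Library size alone and upper-quartile scaling moved the median of all genes to -0.13 and -0.12, from -0.02. DESeq2 also called MT-RNR1 (-2.91, adjusted p = 0.0402) and MT-RNR2 (-2.26, adjusted p = 0.0397) lower. The small change of MT-ATP6 turned to -0.083 with library size alone, -0.069 with upper-quartile scaling, -0.070 with limma on log2(CPM + 1), and -0.032 with a mean count of 50 or more. Over the left-out libraries it ranged from -0.061 (WT replicate 2 left out; -0.026 for WT replicate 1) up to 0.17 (WT replicate 3). Over the left-out libraries the log2 fold change ranged from -0.19 to 0.13 for MT-ND1, -0.13 to 0.15 for MT-ND2, -0.32 to 0.084 for MT-ND3, -0.27 to 0.069 for MT-ND6 and -0.22 to 0.042 for MT-CO3, and in each the high end was the value without WT replicate 3, the 1 setting among them in which it was positive. Scaling to the summed mitochondrial mRNAs, chosen after seeing the data, gave 1 mRNA lower and 1 higher, and by its construction raised MT-ND1 to 0.24, MT-ND2 to 0.28, MT-ND3 to 0.15, MT-ND5 to 0.14, MT-ND6 to 0.17, MT-CO2 to 0.035 and MT-CO3 to 0.18. With WT replicate 3 also left out it gave 3 lower and 7 higher, with MT-ND1 at 0.30, MT-ND2 at 0.33, MT-ND3 at 0.26, MT-ND4 at 0.00299, MT-ND5 at 0.14, MT-ND6 at 0.24, MT-CO2 at 0.085, MT-CO3 at 0.21 and MT-ATP8 at 0.12. This scaling moved the median of all tested genes to 0.27 with all libraries and to 0.16 without WT replicate 3. The share of all genes called under it was not computed. The cause of the other changes was not tested.

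The lower library share kept its direction under every alternative (-0.709 to -0.384 percentage points). Taking the mean of log2 counts ended the separation for complex I to complex IV (0.11) and for pseudogenes to mRNA (0.12, only pseudogenes with counts in every library). With it, MT-ND6 to the other 12 mRNAs (0.13) and the stop codon ratio (0.04) reached the smallest exact permutation p, 0.1. The log2 ratio of MT-RNR2 to MT-RNR1 was 0.21, and leaving out 1 library gave -0.0977 (WT replicate 2) to 0.724 (WT replicate 1), with -0.00473 for WT replicate 3. Among nuclear complex subunits 12 in place of 7 were called lower with library size alone, upper-quartile scaling and limma on log2(CPM + 1). In these 3 settings in turn, 31, 32 and 31 subunits were called higher, in place of 41. The machinery list had 35, 36 and 35 called higher in place of 42, and 13, 12 and 12 called lower in place of 9. The pseudogenes called higher fell from 11 to 7 with DESeq2, 6 with limma on log2(CPM + 1) and 1 with a mean count of 50 or more, where 2 were called lower, and ranged from 5 to 10 over the left-out libraries. The planned share and ratio of tRNAs could not be computed, since tRNA genes were not analysed here. The rRNAs rested on 7 to 466 counts per library.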
